A study of Homo sapiens with 23 samples.

Results

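A set of 39 genes for endoplasmic reticulum (ER) chaperones, protein folding and the unfolded protein response was followed through RNA sequencing of 23 libraries of human prostate cancer lines. The members were a named list matched by gene symbol, and were found as 39 of the 60683 features of the LNCaP table, 39 of the 58219 features of the LAPC4 table and 39 of the 54646 features of the drug table. By role they were 9 lumenal chaperones and cofactors, 3 proteins of the lectin folding cycle, 6 disulfide and proline isomerases, 7 stress sensors and transcription factors, 10 proteins of degradation from the ER, and 4 of translocation and export.

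The study asked how ONECUT2 (OC2), a homeodomain transcription factor, shapes gene expression in prostate adenocarcinoma lines. LNCaP, an androgen-sensitive line from a lymph node metastasis, was sequenced as OC2 overexpression (OC2 OE), a short hairpin against OC2 (shOC2), a control hairpin (shCon) and a group labelled only as control, with 2 libraries each, all in RPMI-1640 with 10% serum. LAPC4, an androgen receptor-positive xenograft line, was sequenced as OC2 OE and empty vector (Vec), with 3 libraries each, in IMDM with 10% serum and 1 nM R1881, a synthetic androgen. LNCaP cells were also treated for 7 days with enzalutamide, an androgen receptor antagonist, together with an OC2 inhibitor (Combine, 10 µM of each), with enzalutamide alone (Enza, 10 µM) or with vehicle, with 3 libraries each. The labels do not state which construct raised OC2 or whether a line was a clone or a pool, and they show 1 hairpin name for shOC2. Nothing in them says that replicates came from separate cultures, so every p-value measures only the spread between these libraries.

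Proteins that enter the secretory pathway are folded in the ER by HSPA5 (BiP), HSP90B1 and their cofactors, by the lectins calnexin and calreticulin, and by protein disulfide isomerases. When unfolded protein accumulates, the sensors IRE1 (encoded by ERN1), ATF6 and PERK (encoded by EIF2AK3) start the unfolded protein response: IRE1 splices the XBP1 message, ATF6 is cleaved into a transcription factor, and PERK slows translation and raises ATF4 and DDIT3 (CHOP). ATF6 and spliced XBP1 act on genes of folding and of ER-associated degradation through the ER stress response element (ERSE) and its variant ERSE-II. Luminal prostate cells are secretory, and in prostate cancer lines androgens are known to raise IRE1 and XBP1 activity.

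The promoter elements of HSPA5, CRELD2, SDF2L1, HERPUD1 and others are shown first because these members recur in the comparisons. RefSeq promoter windows of 300 bases (250 before to 50 after the gene start, build GRCh38.p14) were held for 35 of the 39 members. Letters were searched on both strands for ERSE (CCAAT and CCACG with any 9 bases between them), ERSE-II (ATTGG and CCACG with any 1 base between them) and the core of the XBP1 element (TGACGTG). ERSE was found in 6 of the 35 windows (17.1%), against 22 of all 27305 windows (0.0806%). ERSE-II was found in 3 (8.57%), against 15 of all windows (0.0549%). Either element was thus in 9 of 35 members (25.7%), against 0.136% of all windows, whereas the TGACGTG core was in 1 member (2.86%), against 2.00% of all windows. These 2 elements were defined on promoters of such genes, so the share is a description, and a window without a match shows only that these letters are not in it. The matched letters of each member follow in the direction of its own transcription, so that a match on the other strand begins with CGTGG. Capitals mark the fixed bases of ERSE, and all bases of ERSE-II.
HSPA5: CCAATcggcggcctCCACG
HSP90B1, distal: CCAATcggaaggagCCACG
HSP90B1, proximal: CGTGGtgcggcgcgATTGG
CALR: CGTGGtcgaccatcATTGG
CANX: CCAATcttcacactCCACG
CRELD2: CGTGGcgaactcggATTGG
XBP1: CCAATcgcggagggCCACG
SDF2L1: CGTGGACCAAT
HYOU1, both sites: CGTGGTCCAAT
HERPUD1: ATTGGGCCACG

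The first base of the match lay at -66 from the gene start in HSPA5, at -194 and -89 in HSP90B1, at -225 in CALR, at -151 in CANX, at -80 in CRELD2 and at -52 in XBP1. For ERSE-II it lay at -188 in SDF2L1, at -185 and -79 in HYOU1 and at -117 in HERPUD1. The TGACGTG core of HYOU1 began at -188 and overlaps the distal ERSE-II. Whole windows are given for HSPA5 (chr9:125241294-125241593, minus strand), the main lumenal HSP70 chaperone, for CRELD2 (chr22:49918384-49918683, plus strand), a disulfide-handling protein of the ER lumen, and for HERPUD1 (chr16:56931892-56932191, plus strand), an organiser of the degradation complex. The match is in capitals.
HSPA5: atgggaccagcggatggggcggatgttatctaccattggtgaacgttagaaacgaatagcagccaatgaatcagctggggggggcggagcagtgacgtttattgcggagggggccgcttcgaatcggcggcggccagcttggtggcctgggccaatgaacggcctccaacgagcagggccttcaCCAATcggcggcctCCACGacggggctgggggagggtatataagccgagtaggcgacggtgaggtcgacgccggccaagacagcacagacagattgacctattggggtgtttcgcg
CRELD2: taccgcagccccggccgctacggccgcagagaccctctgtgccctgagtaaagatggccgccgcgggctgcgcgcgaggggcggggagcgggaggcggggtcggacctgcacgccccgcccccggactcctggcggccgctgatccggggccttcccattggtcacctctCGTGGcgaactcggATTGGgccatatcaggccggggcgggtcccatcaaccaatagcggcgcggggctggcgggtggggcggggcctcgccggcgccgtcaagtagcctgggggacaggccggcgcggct
HERPUD1: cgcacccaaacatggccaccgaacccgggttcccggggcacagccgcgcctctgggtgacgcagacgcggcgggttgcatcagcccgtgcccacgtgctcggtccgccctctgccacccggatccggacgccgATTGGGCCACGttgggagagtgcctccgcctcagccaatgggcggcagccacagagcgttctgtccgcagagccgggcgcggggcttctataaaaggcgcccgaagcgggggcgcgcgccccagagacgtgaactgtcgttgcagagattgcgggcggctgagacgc

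Library totals were 20964025 to 23272088 counts in the LNCaP table, 28586064 to 30465978 in the LAPC4 table and 22615580 to 28241076 in the drug table. Levels below are CPM (counts scaled to a common library total), set within each table, and the 3 tables were scaled separately. ONECUT2 was at 333 and 304 CPM in LNCaP OC2 OE, 12.1 and 12.2 in shOC2, 20.4 and 21.3 in shCon and 24.6 and 30.7 in control, and at 806 to 969 CPM in LAPC4 OC2 OE against 13.3 to 17.1 in Vec. All 10 luminal prostate markers reached 1 CPM in every library, and 2 to 3 of 11 stromal, endothelial, blood and liver markers did in each group. The summed CPM of the luminal markers was 4523 to 4705 in LNCaP OC2 OE, 7851 to 7867 in shOC2, 5812 to 6161 in shCon and 6984 to 7167 in control, and their part in the results was not tested. The summed CPM of the other 11 was 18.0 to 18.7 in OC2 OE, 22.7 to 28.6 in shOC2, 39 to 43.0 in shCon and 18.4 to 19.6 in LNCaP control, with CD3E, DCN and PECAM1 among those at 0 in both shCon and control. Of the members, 22 share exonic bases with another gene in GENCODE 29 (hg38), DERL3 (77.0% of its exons), PPIB (27.2%), PDIA6 (25.2%) and DNAJB11 (23.2%) most. The strand setting of the counting is not given in the sources used here, so their counts may hold reads of the neighbour.

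In LNCaP most members fell under OC2 OE against control, and most rose against shCon. Of the 39, 15 were called in both of these directions, a joint count not made over all genes. Against control, 24 of 39 members fell and 2 rose (edgeR's quasi-likelihood test, Benjamini-Hochberg adjusted p under 0.05 over all genes), where 29.3% of the 17046 genes tested fell, 31.6% rose and 60.8% changed either way. Against shCon, 27 of 39 rose and 5 fell, where 33.2% of 17182 genes rose, 30.8% fell and 64.0% changed either way. The median member log2 fold change was -0.31 against control, beside 0.02 over all genes, and 0.43 against shCon, beside 0.01. Both comparisons use the same OC2 OE libraries, so their values are set side by side and no likeness between them is scored. In RNA from whole cultures, fewer cells that express a gene and less of its RNA per cell cannot be told apart.

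At an adjusted p under 0.05 and a change of at least 1.5-fold, 7 members fell and 1 rose against control, where 17.9% and 19.5% of all genes did. At the same size 15 members rose against shCon, where 18.4% of all genes rose. The 39 members together held 1.30% and 1.29% of all counts in OC2 OE, 1.06% and 1.08% in shOC2, 1.08% and 1.07% in shCon and 1.48% and 1.60% in control. The summed share thus put OC2 OE between the hairpin libraries and control, with no overlap. By group mean, control was the highest of the 4 LNCaP groups for 28 members and OC2 OE for 8, whereas shCon was lowest for 16 and shOC2 for 15. This ranking was not made over all genes, so the counts describe the members and have no background beside them.

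**Figure D1:**
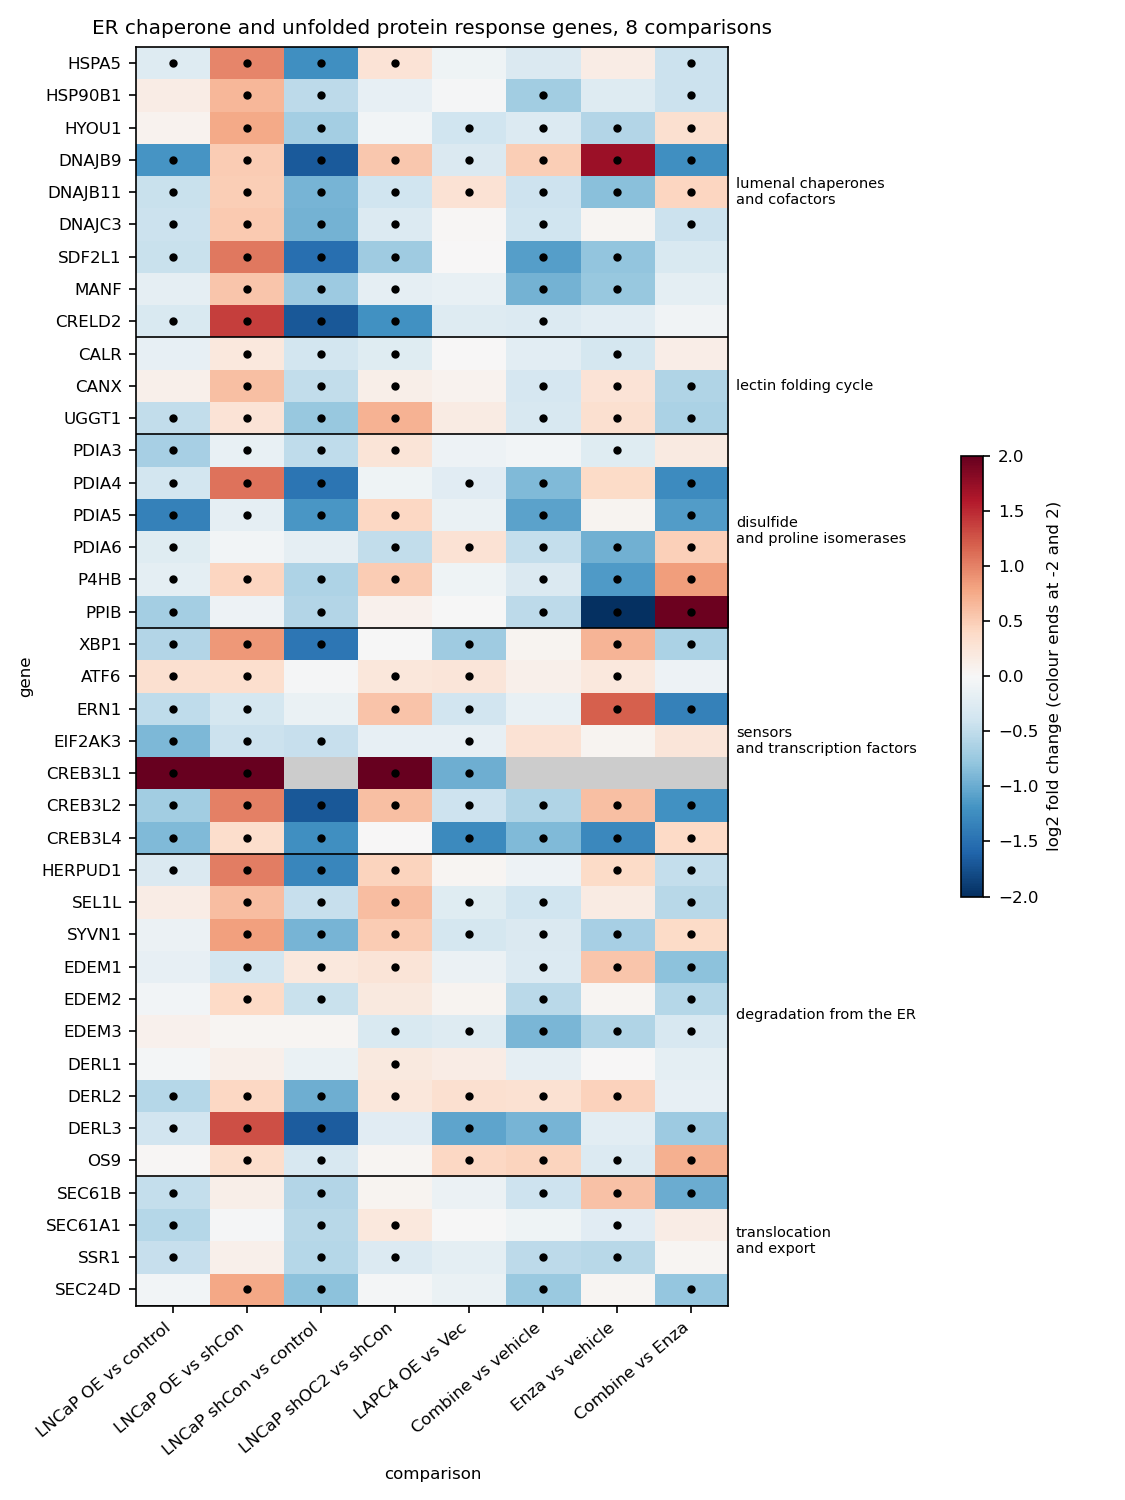
Log2 fold change of the 39 members (rows, by role) in 8 comparisons (columns). Colour runs from blue (lower) to red (higher) and saturates at -2 and 2, dots mark an adjusted p under 0.05, and grey marks a gene not tested. The OC2 OE columns of LNCaP run mostly blue against control (24 lower, 2 higher) and mostly red against shCon (27 higher, 5 lower).

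Among the lumenal chaperones, 6 of 9 fell against control and 9 of 9 rose against shCon, with role medians of -0.31 and 0.67. HSPA5 was at 1474 and 1459 CPM in OC2 OE, against 761 and 729 in shCon and 1601 and 1857 in control. OC2 OE was below both control libraries and far above both shCon libraries. Its log2 fold change was -0.25 (SE 0.08, adjusted p = 0.0183) against control and 0.97 (SE 0.05, adjusted p = 1.15e-07) against shCon, and the call against control was lost without either OC2 OE library or without control replicate 2. CRELD2 was at 147 and 135 CPM in OC2 OE, against 51.0 and 56.6 in shCon and 170 and 176 in control, and showed the largest rise of a member against shCon apart from CREB3L1 (1.38, SE 0.07, adjusted p = 6.83e-08).

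DNAJB9, the ERdj4 cochaperone that binds IRE1, was at 20.3 and 21.8 CPM in OC2 OE, against 13.0 and 16.4 in shCon and 45.0 and 49.3 in control. The control libraries stood well above all others. Its log2 fold change was -1.18 (SE 0.09, adjusted p = 3.88e-06) against control and 0.52 against shCon, the second of which was not called without either OC2 OE library or without shCon replicate 1. SDF2L1, a partner of DNAJB11 in the lumen, was at 93.1 and 81.8 CPM in OC2 OE, 42.8 and 40.6 in shCon and 118 and 118 in control. DNAJB11, a second HSPA5 cochaperone, and DNAJC3 (p58IPK), which also restrains PERK, fell against control (-0.45 and -0.43) and rose against shCon (0.49 and 0.52). HSP90B1 (GRP94), HYOU1 (a nucleotide exchange factor for HSPA5) and MANF (a secreted HSPA5 binder) were not called against control (0.14, 0.06 and -0.18) and rose against shCon by 0.67, 0.76 and 0.56.

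Of the lectin cycle, CALR and CANX, the calreticulin and calnexin chaperones, were not called against control (-0.16, adjusted p = 0.0505, and 0.10), and rose against shCon (0.21 and 0.60). UGGT1, the glucosyltransferase that returns misfolded glycoproteins to them, fell against control (-0.49) and rose against shCon (0.27). The rise of CALR was not called without OC2 OE replicate 1 or shCon replicate 2.

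All 6 isomerases fell against control, with a median of -0.52, while 2 rose and 2 fell against shCon. PDIA5, a disulfide isomerase known to act on ATF6, was at 39.3 and 37.1 CPM in OC2 OE, against 41.8 and 44.0 in shCon and 95.1 and 97.2 in control. The OC2 OE libraries were far below control (-1.35, SE 0.08, adjusted p = 4.22e-07) and close under shCon (-0.17, adjusted p = 0.0409). PDIA4, by contrast, was at 795 and 786 CPM in OC2 OE, against 378 and 362 in shCon and 962 and 1066 in control, with log2 fold changes of -0.37 against control and 1.09 against shCon. PDIA3 (ERp57, which works with the lectins) was lower than both, by -0.66 and -0.14. PPIB (cyclophilin B) and PDIA6 fell against control (-0.68 and -0.24) and were not called against shCon (-0.10 and -0.05), and P4HB (protein disulfide isomerase itself) went -0.20 and 0.43. The calls of PDIA3 and PDIA5 against shCon were lost without any 1 of the 4 libraries, and those of PDIA6 and P4HB against control without 3 of the 4.

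**Figure D2:**
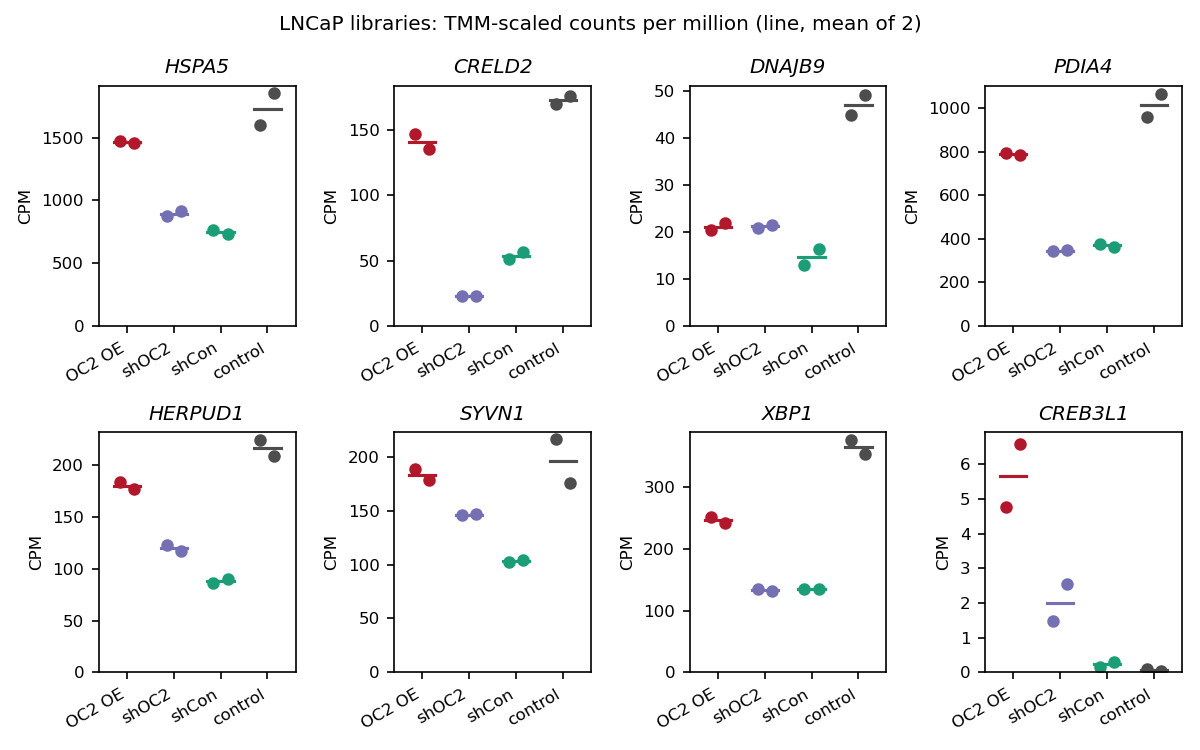
CPM of 8 members in the 4 LNCaP groups, OC2 OE, shOC2, shCon and control, 1 point per library with a line at the mean of 2. For HSPA5 the OC2 OE libraries (1474 and 1459) lie between shCon (761 and 729) and control (1601 and 1857), and for CREB3L1 the OC2 OE libraries (4.75 and 6.59) lie above all others.

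Of the 7 sensors and transcription factors, 5 fell and 2 rose against control, and 2 fell and 5 rose against shCon. XBP1, the factor made active by IRE1 splicing, was at 252 and 242 CPM in OC2 OE, 135 and 135 in shCon and 377 and 355 in control. All 3 groups stood apart, with log2 fold changes of -0.58 (SE 0.07, adjusted p = 7.11e-05) against control and 0.87 (SE 0.05, adjusted p = 2.73e-07) against shCon. Gene counts do not separate its spliced form. EIF2AK3 (PERK) was at 22.4 and 25.1 CPM in OC2 OE, against 31.4 and 32.7 in shCon and 43.3 and 44.6 in control, and was thus below every library of both control sets (-0.90 and -0.44). ERN1 (IRE1) was also lower than both, by -0.50 and -0.36, the call against shCon being lost without OC2 OE replicate 1 or shCon replicate 2. ATF6 was at 70.5 and 74.1 CPM in OC2 OE, 55.9 and 57.6 in shCon and 56.3 and 58.5 in control. It was above every library of either control set (0.32, adjusted p = 0.00465, and 0.34, adjusted p = 0.000509), the call against control being lost without OC2 OE replicate 2.

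CREB3L1, CREB3L2 and CREB3L4 are ER-anchored transcription factors that, like ATF6, are released by cleavage and are known for raising secretory capacity. CREB3L1 (OASIS) had 100 and 139 rounded estimated counts in OC2 OE, 32 and 56 in shOC2, 4 and 7 in shCon and 2 and 1 in control. Against control the summed 239 counts to 3 give a ratio of 81.5 per scaled library, with a 95% interval of 27.5 to 398 (exact Clopper-Pearson, counting error only), and against shCon the log2 fold change was 4.60 (SE 0.34, adjusted p = 1.39e-06). In LNCaP it was the member with the lowest counts and the largest log2 fold change, at 4.75 and 6.59 CPM in OC2 OE. CREB3L2 was at 73.5 and 79.8 CPM in OC2 OE, against 37.2 and 38.8 in shCon and 125 and 122 in control (log2 fold change -0.70 against control and 1.01 against shCon). CREB3L4, a prostate-enriched member of the family, was at 95.9 and 99.2 CPM in OC2 OE, against 69.1 and 84.0 in shCon and 187 and 169 in control. Its fall against control was -0.88 (adjusted p = 8.65e-06), and its rise of 0.34 against shCon was lost without either OC2 OE library or shCon replicate 1.

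Of the 10 degradation members, 3 fell against control and 7 rose and 1 fell against shCon. HERPUD1 was at 184 and 177 CPM in OC2 OE, 86.6 and 89.9 in shCon and 225 and 209 in control, giving -0.28 against control (lost without either OC2 OE library) and 1.02 (SE 0.05, adjusted p = 1.12e-07) against shCon. SYVN1 (HRD1, the ubiquitin ligase of the degradation complex) was at 188 and 178 CPM in OC2 OE, against 103 and 104 in shCon and 217 and 176 in control. OC2 OE overlapped control (-0.12, adjusted p = 0.328) and was above both shCon libraries (0.82). SEL1L, the adaptor of SYVN1, likewise went 0.14 (not called) and 0.61, and the lectin OS9 0.02 (not called) and 0.35. DERL2, a derlin of the retrotranslocation channel, fell against control (-0.57) and rose against shCon (0.42), as did DERL3 (-0.38 and 1.29), whose exons mostly overlap SMARCB1. EDEM1, a mannosidase-like protein that targets glycoproteins for degradation, was not called against control (-0.17) and fell against shCon (-0.37), and EDEM2 was not called against control (-0.05) and rose against shCon (0.40). EDEM3 and DERL1 were called against neither.

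Of translocation and export, SEC61A1 and SEC61B, channel subunits, and SSR1, a subunit of the translocon-associated complex, fell against control (-0.57, -0.47 and -0.46) and were not called against shCon (-0.02, 0.12 and 0.11). SEC24D, a COPII cargo adaptor, was not called against control (-0.05) and rose against shCon (0.77). Sorted by both calls, 15 members were lower than control and higher than shCon, 4 were lower than both (PDIA3, PDIA5, ERN1 and EIF2AK3) and 2 were higher than both (ATF6 and CREB3L1). These joint patterns were not counted over all genes, and both calls rest on the same OC2 OE libraries. Of the calls against control, 18 of 24 lower and 1 of 2 higher were held in every fit that left out 1 library, and against shCon 24 of 27 higher and 2 of 5 lower. Without the filter on low counts, the calls of HSPA5, PDIA6, P4HB and DERL3 against control and of PDIA5, DNAJB9, ERN1 and CREB3L4 against shCon were also lost.

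**Figure D3:**
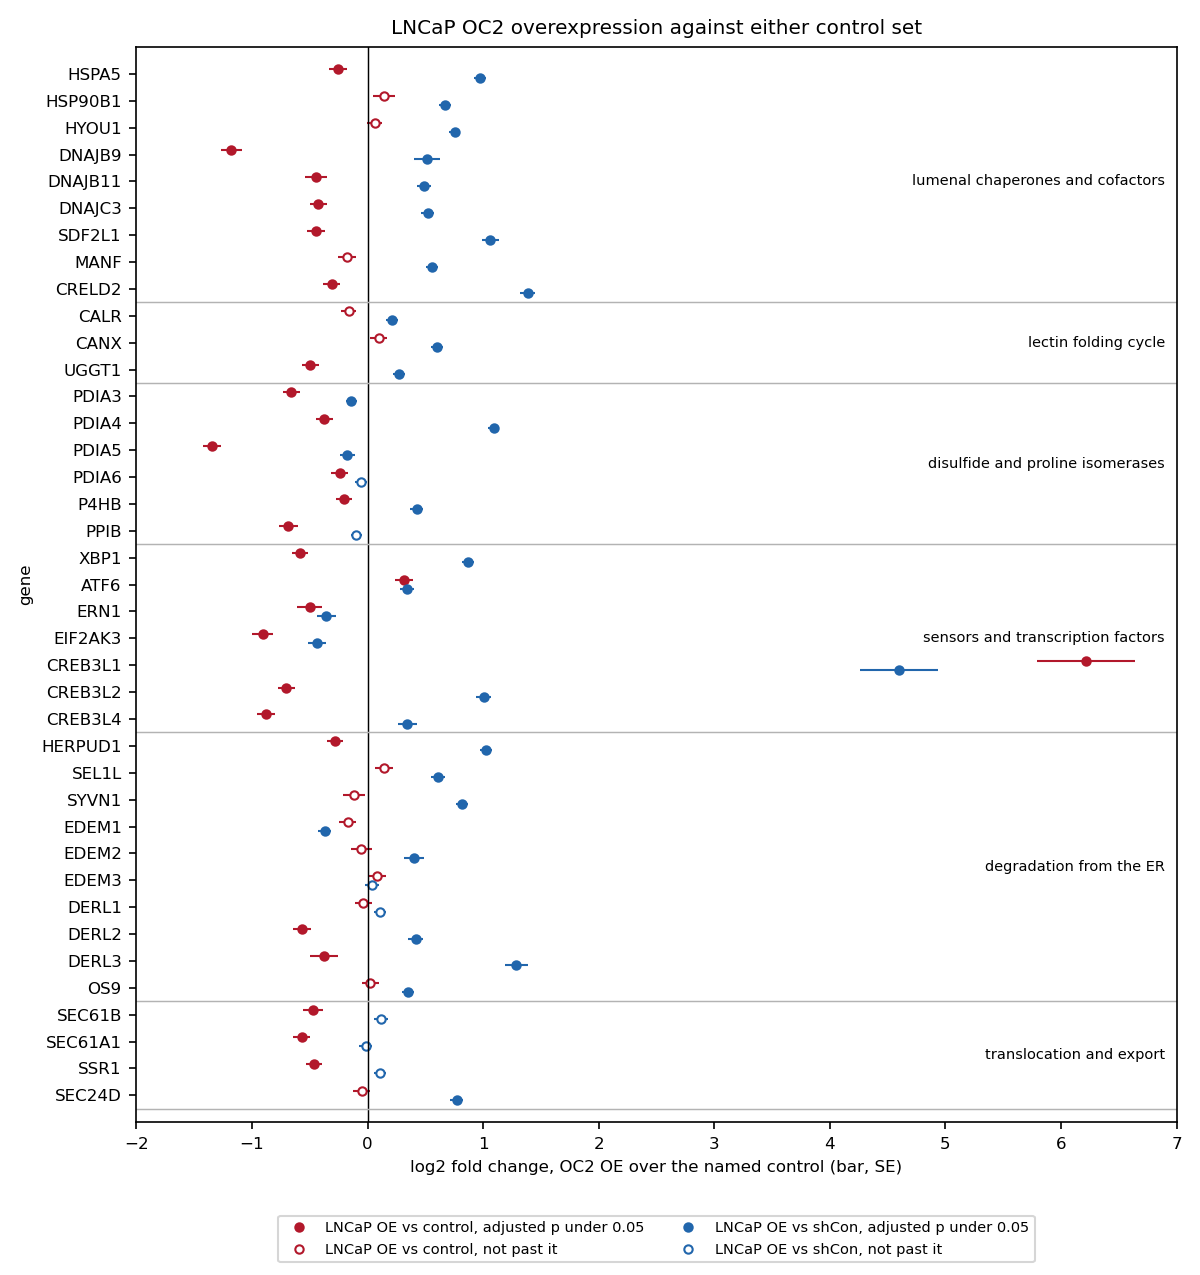
Log2 fold change with its SE for each member in LNCaP OC2 OE against control (red) and against shCon (blue), filled where the adjusted p is under 0.05. The pairs of points lie apart for most members (HSPA5 -0.25 and 0.97), close together for ATF6 (0.32 and 0.34), and both below 0 for PDIA3, PDIA5, ERN1 and EIF2AK3.

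Most members were also lower in shCon than in control. Between shCon and control, 32 of the 38 members tested fell and 1 rose, where 28.1% of 16790 genes fell, 28.3% rose and 56.4% changed either way, with a member median of -0.65 beside -0.00 over all genes. CREB3L1 had too few counts to be tested. All 9 lumenal chaperones fell, with a median of -0.94. At 1.5-fold, 21 members fell, where 16.0% of all genes did. The falls included CRELD2 (-1.69), DNAJB9 (-1.69), DERL3 (-1.66), SDF2L1 (-1.50), PDIA4 (-1.46), HERPUD1 (-1.30) and HSPA5 (-1.22, SE 0.09, adjusted p = 5.31e-06).

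Among the sensors, XBP1 was at 135 and 135 CPM in shCon, against 377 and 355 in control (-1.45, SE 0.07, adjusted p = 4.72e-07), and CREB3L2 fell by 1.70 and CREB3L4 by 1.22 on the log2 scale. The groups were far apart for all 3 genes. ATF6 (-0.02) and ERN1 (-0.14) were not called, and EIF2AK3 fell (-0.46). EDEM1 was the 1 member that rose (0.20), a call lost in each fit without 1 library. Of the 32 falls, 31 held in every such fit, OS9 being lost without shCon replicate 1. The labels give no more than the hairpin as the difference between these groups, and the library names in the sample descriptions follow different numbering styles. The hairpin and the preparation of the libraries cannot be told apart here, and the summed CPM of the stromal, blood and liver markers was also higher in shCon (39 to 43.0) than in control (18.4 to 19.6), whose part in the result was not tested.

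Knockdown of OC2 was set against the hairpin control. Of 39 members, 18 rose and 9 fell, where 27.3% of 16585 genes rose, 26.8% fell and 54.1% changed either way, and the member median was 0.08 beside 0.00. At 1.5-fold, 4 rose (11.5% of all genes) and 2 fell (12.7%). CRELD2 was at 23 and 23 CPM in shOC2, against 51.0 and 56.6 in shCon (-1.22, SE 0.07, adjusted p = 7.8e-07), and SDF2L1 was at 23.5 and 27.3 CPM in shOC2, against 42.8 and 40.6 in shCon (-0.71, adjusted p = 5.27e-05). Both groups of both genes stood apart. PDIA6 (-0.49) and DNAJB11 (-0.40) also fell. HSPA5 moved the other way, at 877 and 914 CPM in shOC2 against 761 and 729 in shCon (0.27, adjusted p = 0.00146), a call lost without shOC2 replicate 2.

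Of the 10 degradation members, 6 rose and 1 fell. SEL1L was at 131 and 126 CPM in shOC2, against 85.6 and 83.0 in shCon (0.61, SE 0.05, adjusted p = 1.03e-05), SYVN1 at 146 and 147 in shOC2 against 103 and 104 in shCon (0.51), and HERPUD1 at 123 and 117 in shOC2 against 86.6 and 89.9 in shCon (0.45). The groups did not overlap for any of the 3. UGGT1 rose to 131 and 119 CPM in shOC2, against 77.2 and 77.6 in shCon (0.70), and P4HB, PDIA5 and PDIA3 rose by 0.51, 0.41 and 0.25.

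Of the sensors, 4 of 7 rose in shOC2 over shCon: ERN1 (0.57), CREB3L2 (0.60), ATF6 (0.23) and CREB3L1 (3.11, SE 0.45, adjusted p = 0.000282). XBP1 was at 135 and 132 CPM in shOC2, against 135 and 135 in shCon (-0.00, adjusted p = 0.979). CREB3L1 was thus above shCon in both OC2 OE (100 and 139 counts) and shOC2 (32 and 56 counts), where shCon had 4 and 7, and ATF6 was above shCon in both as well, its call in shOC2 being lost without either shOC2 library. Without shOC2 replicate 1, 11 members rose, and without shOC2 replicate 2, 11 rose and 5 fell (16 called). In every such fit 10 of the 18 rises and 4 of the 9 falls were held.

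In LAPC4 under OC2 OE, all 7 sensors and transcription factors were called and 3 of 9 lumenal chaperones were. Of 39 members, 13 fell and 5 rose, where 29.0% of 16904 genes fell, 32.1% rose and 61.1% changed either way, and the member median was -0.11 beside 0.00. At 1.5-fold, 4 members fell, namely CREB3L4, DERL3, CREB3L1 and XBP1, where 16.8% of all genes fell. The called share of the module (18 of 39) was below that of all genes. Of the 10 luminal markers 8 fell and 1 rose (median -0.95), and their summed CPM was 2693 to 2892 in OC2 OE against 3595 to 3874 in Vec, whose part in these results was not tested. Of the sensors and transcription factors 6 were lower and ATF6 higher.

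CREB3L4 was at 126, 126 and 113 CPM in OC2 OE, against 271, 283 and 332 in Vec (-1.28, SE 0.09, adjusted p = 1.38e-06). XBP1 was at 161, 148 and 145 CPM in OC2 OE, against 235, 228 and 279 in Vec (-0.71, SE 0.09, adjusted p = 7.44e-05). For both genes every OC2 OE library was below every Vec library. CREB3L1, near the floor in LNCaP controls, was plainly expressed in LAPC4, at 25.2, 21.9 and 22.9 CPM in OC2 OE against 38.7, 44.4 and 54.8 in Vec (-0.98, adjusted p = 8.87e-05). CREB3L2 was at 187, 205 and 197 CPM in OC2 OE, against 228, 260 and 295 in Vec (-0.41), and ERN1 at 33.7, 30.7 and 32.2 in OC2 OE, against 41.7, 42.2 and 42.7 in Vec (-0.39). These groups did not overlap. EIF2AK3 fell (-0.16, adjusted p = 0.0418), a call lost in each fit without 1 library.

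ATF6 was at 78.8, 80.9 and 82.5 CPM in OC2 OE, against 66.0, 65.9 and 73.2 in Vec (0.24, adjusted p = 0.00978). All OC2 OE libraries were above all Vec libraries, though the call was lost without Vec replicate 2. HSPA5 overlapped, at 846, 867 and 824 CPM in OC2 OE against 840, 868 and 988 in Vec (-0.09, adjusted p = 0.358). HYOU1 (562, 542 and 575 CPM in OC2 OE, against 691, 739 and 794 in Vec) and DNAJB9 (39.8, 38.4 and 38.2 in OC2 OE, against 46.2, 44.9 and 51.3 in Vec) were the chaperones that fell (-0.41 and -0.29), and DNAJB11 rose (0.29). OS9 (308, 279 and 294 CPM in OC2 OE, against 209, 211 and 239 in Vec) and DERL2 rose (0.42 and 0.31), PDIA6 rose (0.29) and PDIA4 fell (-0.23). SYVN1 (-0.35), EDEM3 (-0.26) and SEL1L (-0.24) fell. DERL3, low in this line, was at 5.61, 4.17 and 5.58 CPM in OC2 OE, against 11.7, 10.5 and 9.82 in Vec (-1.06).

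No lectin member and no translocation or export member was called by edgeR in LAPC4. At an unadjusted p under 0.05 the counts were 0 of 3 lectins and 1 of 4 translocation and export members (SSR1), and DESeq2 called 0 in either. Without Vec replicate 3, 8 members rose, and without Vec replicate 2, 3 rose. In every fit without 1 library, 9 of 13 falls and 3 of 5 rises were held. PDIA4 was lost without Vec replicate 2 or OC2 OE replicate 2 or 3, SEL1L without OC2 OE replicate 1 or 3, SYVN1 without OC2 OE replicate 2 and PDIA6 without Vec replicate 2.

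**Figure D4:**
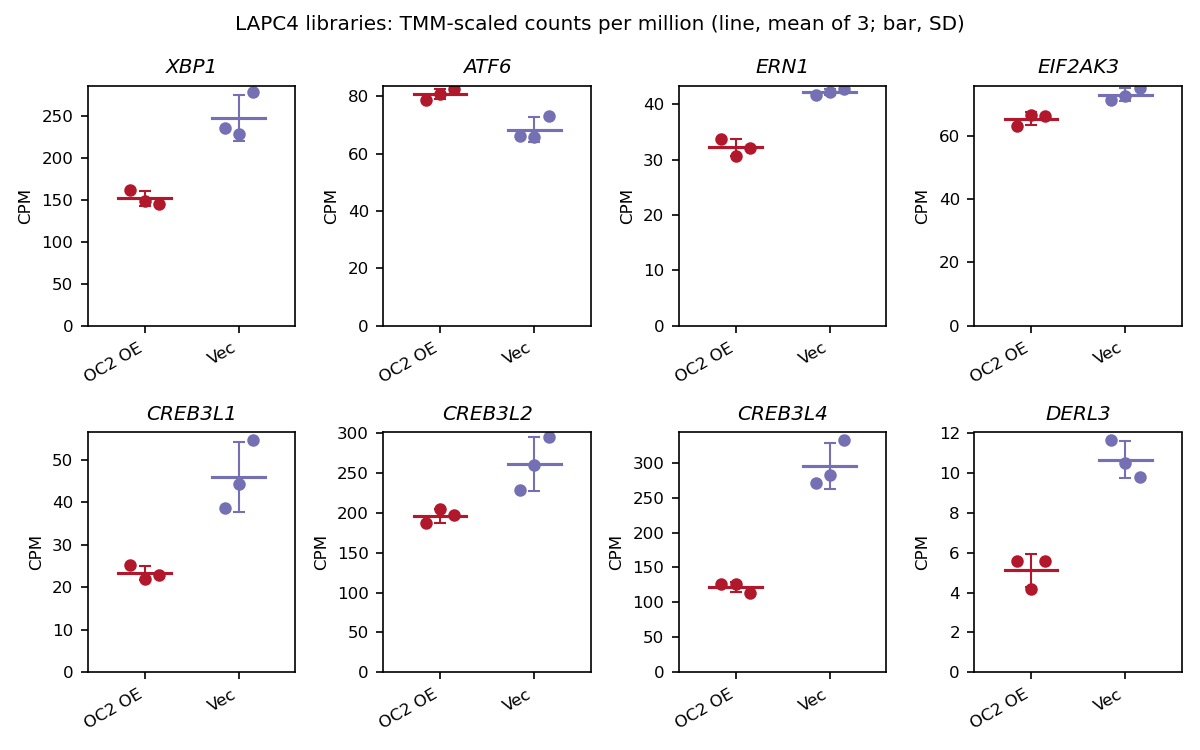
CPM of XBP1, ATF6, ERN1, EIF2AK3, CREB3L1, CREB3L2, CREB3L4 and DERL3 in LAPC4 OC2 OE and Vec, 1 point per library with the mean and SD of 3. For the genes shown each group of 3 lies apart from the other. ATF6 is higher in OC2 OE (78.8 to 82.5) than in Vec (65.9 to 73.2). The other 7 are lower, such as XBP1 (145 to 161 in OC2 OE, 228 to 279 in Vec). Of all 39 members the LAPC4 groups overlapped for 18, with OC2 OE below Vec for 15 and above for 6. This separation was not counted over all genes.

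Set against LNCaP, the LAPC4 response was compared by an interaction term on each control set. With control as the LNCaP reference, the log2 fold change of OC2 OE was higher in LAPC4 for 15 of 39 members and lower for 6 (3 without LNCaP OC2 OE replicate 2), where 25.4% of 19633 genes were higher, 24.1% lower and 49.5% either. With shCon it was lower in LAPC4 for 24, where 26.4% of 19761 genes were lower and 49.3% differed either way. No member was higher with shCon by edgeR, and at an unadjusted p under 0.05 there were 2 (EDEM1 and PDIA6), with no second tool run. For 19 members called with at least 1 of the control sets the sign of the difference changed with the set, HSPA5 and PDIA4 among them, and it also changed for CALR, DERL1 and ERN1, which were called with neither. LNCaP and LAPC4 also differ in medium, in the added androgen and in their tables, which cannot be told apart from the line.

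Across the comparisons the members with ERSE or ERSE-II in the windows shown above can be set beside the rest, by counts alone. Of the 9 with a match, 9 rose against shCon under LNCaP OC2 OE (median 0.87). Of the other 30 members 18 rose and 5 fell (median 0.35), where 33.2% of all genes rose and 30.8% fell. All 9 fell in shCon against control (median -1.22), with 23 of the other 29 lower and 1 higher (median -0.59). Of all genes 28.1% fell there and 28.3% rose. Against control, 5 of the 9 fell under OC2 OE (median -0.25) and 19 of the other 30 fell (median -0.40). In LAPC4, 2 of 9 fell (HYOU1 and XBP1, median -0.02) and 11 of the other 30 fell (median -0.12). In shOC2 against shCon 3 rose and 3 fell of the 9 (median -0.05), and 15 rose and 6 fell of the other 30 (median 0.19). In Combine against vehicle 5 of the 9 fell (median -0.28), and 20 of the other 29 fell and 3 rose (median -0.39). In Enza against vehicle 3 rose and 3 fell of the 9 (median -0.21), and 8 rose and 12 fell of the other 29 (median 0.04). In Combine against Enza 1 rose and 5 fell of the 9 (median -0.43), and 7 rose and 14 fell of the other 29 (median -0.20). Over all genes 29.3% fell and 31.6% rose under OC2 OE against control, 29.0% and 32.1% in LAPC4, and 26.8% and 27.3% in shOC2. The shares were 23.6% and 23.2% in Combine, 35.6% and 34.7% in Enza, and 30.4% and 31.5% in Combine against Enza. The members with a match include the highly expressed HSPA5, HSP90B1 and CALR, and the split was not matched for level. The other members include 4 with no promoter sequence held.

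In the drug experiment most members were lower in Combine than in vehicle. Of 38 members tested, 25 fell and 3 rose in Combine against vehicle, where 23.6% of 17436 genes fell, 23.2% rose and 46.8% changed either way (member median -0.32 beside 0.01). In Enza against vehicle 11 rose and 15 fell, where 34.7% rose, 35.6% fell and 70.3% changed either way (median 0.02 beside 0.01, and -0.07 to 0.05 in fits without 1 library). In Combine against Enza 8 rose and 19 fell, where 31.5% rose, 30.4% fell and 61.9% changed either way (median -0.31 beside -0.02). At 1.5-fold, 10 members fell in Combine against vehicle (13.1% of all genes). At the same size 4 rose and 10 fell in Enza against vehicle (25.9% and 26.2%), and 3 rose and 12 fell in Combine against Enza (22.3% and 20.5%). The summed CPM of the luminal markers was 4390 to 4566 in Combine, 3159 to 3455 in Enza and 5793 to 6339 in vehicle, and its part in these results was not tested. The 3 comparisons share arms, and CREB3L1 had at most 3 counts in any drug library and was not tested. The Enza columns are whole counts from a counting step other than that of the Combine and vehicle columns, which cannot be told apart from the treatment in any comparison that uses Enza. As a check of the treatment, the androgen receptor target KLK3 was at 57.5 to 74.0 CPM in Combine, 137 to 403 in Enza and 1535 to 1830 in vehicle, and the log2 fold change of FKBP5, another target, was -3.05 in Combine and -2.39 in Enza against vehicle.

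Under Combine, 7 of 9 lumenal chaperones fell and 1 rose, with a median of -0.39. SDF2L1 was at 21.7, 20.5 and 23.9 CPM in Combine, 18.3, 34.3 and 28.7 in Enza and 50, 46.0 and 45.1 in vehicle. Every treated library was below every vehicle library, with log2 fold changes of -1.09 (SE 0.19, adjusted p = 0.00105) for Combine and -0.80 (SE 0.18, adjusted p = 0.00294) for Enza. MANF (-0.95 in Combine, -0.75 in Enza) also fell with both, and HSP90B1 fell in Combine (-0.69) and was not called in Enza (-0.26). HSPA5 was at 857, 683 and 858 CPM in Combine, 984, 1176 and 1061 in Enza and 952, 1078 and 891 in vehicle. It was called against vehicle in neither arm (-0.28, adjusted p = 0.0718, and 0.14, adjusted p = 0.306) and was lower in Combine than in Enza (-0.43, adjusted p = 0.00985). With DESeq2, or with Combine and vehicle fitted alone, its fall in Combine was called.

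DNAJB9 was at 24.7, 23.9 and 22 CPM in Combine, 58.2, 48.9 and 57.2 in Enza and 14.7, 21.7 and 13.7 in vehicle. The Enza libraries stood far above the other arms, with log2 fold changes of 0.49 (adjusted p = 0.027) for Combine and 1.71 (SE 0.16, adjusted p = 5.32e-06) for Enza, and -1.22 for Combine against Enza. The call in Combine was lost without Combine replicate 1 or 2 or vehicle replicate 1 or 3. ERN1, whose product DNAJB9 binds, was at 33.6, 28.9 and 32.3 CPM in Combine, 84.9, 75.5 and 81.6 in Enza and 35.5, 37.6 and 32.5 in vehicle. It rose in Enza (1.20, SE 0.09, adjusted p = 8.7e-07) and not called in Combine (-0.15). XBP1 was at 209, 225 and 209 CPM in Combine, 301, 349 and 343 in Enza and 204, 206 and 212 in vehicle (0.67 in Enza, adjusted p = 2.21e-05, and 0.05 in Combine, adjusted p = 0.634).

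CREB3L4 was at 73.7, 74.5 and 69.7 CPM in Combine, 54.1, 58.1 and 52.7 in Enza and 137, 124 and 140 in vehicle. The 3 arms did not overlap, with -0.88 (adjusted p = 1.41e-05) for Combine and -1.28 (adjusted p = 1.64e-07) for Enza. CREB3L2 parted, at -0.61 in Combine and 0.61 in Enza against vehicle. ATF6 rose in Enza by 0.22 (adjusted p = 0.0383) and was not called in Combine (0.11), and EIF2AK3 was called in neither (0.28 and 0.05). The rise of ATF6 in Enza was lost without any 1 vehicle library or without either of 2 Enza libraries.

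Of the isomerases 5 of 6 fell in Combine and 4 of 6 in Enza. PDIA4 was at 216, 175 and 226 CPM in Combine, 348, 590 and 545 in Enza and 374, 401 and 358 in vehicle (-0.88, adjusted p = 0.00249 in Combine, and 0.39, adjusted p = 0.0681 in Enza). The first Enza column stood apart from the other two. PDIA5 fell in Combine (-1.06, adjusted p = 0.000606) and was not called in Enza (0.05). P4HB was at 1079, 992 and 1079 CPM in Combine, 541, 641 and 577 in Enza and 1267, 1308 and 1266 in vehicle (-0.29 and -1.13). PPIB was at 419, 342 and 433 CPM in Combine, 71.8, 123 and 111 in Enza and 573, 576 and 562 in vehicle. Its log2 fold change of -2.48 in Enza against vehicle was the furthest from 0 of any member in the drug table. PPIB shares 27.2% of its exonic bases with SNX22, and the part of the other counting step was not tested. The call of P4HB in Combine was lost without Combine replicate 2 or vehicle replicate 1 or 2, and that of PPIB without Combine replicate 1 or 2 or any 1 vehicle library.

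**Figure D5:**
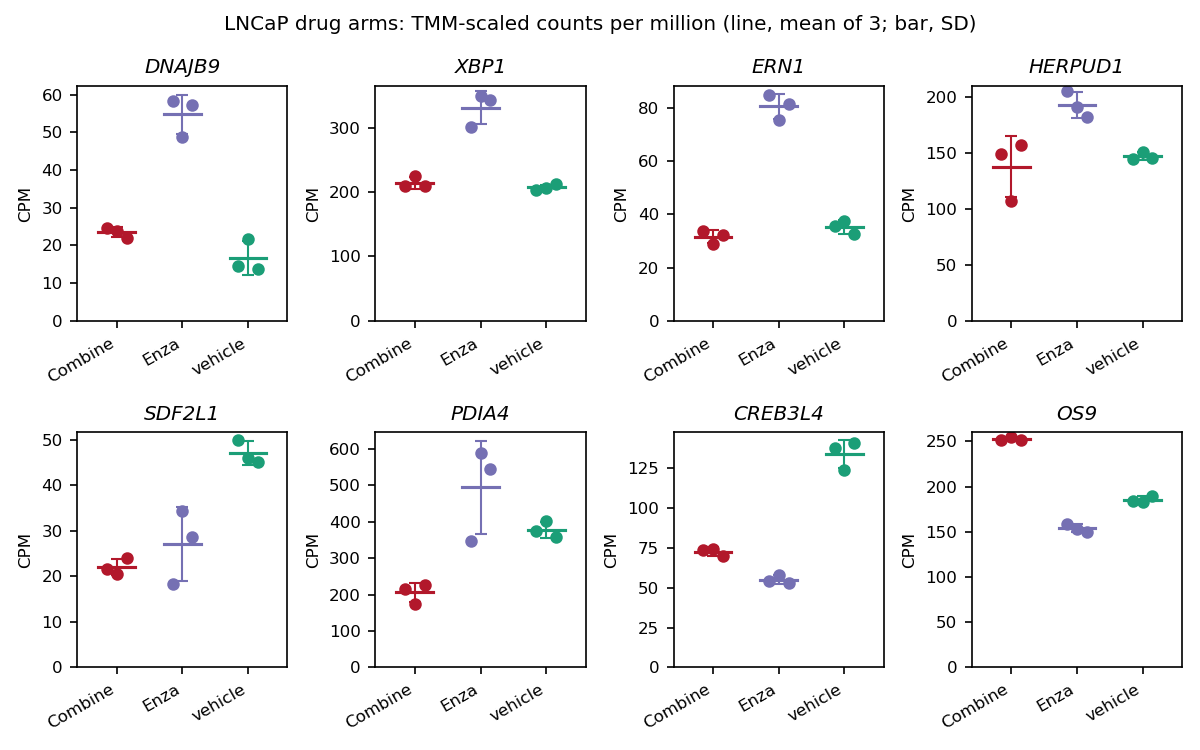
CPM of DNAJB9, XBP1, ERN1, HERPUD1, SDF2L1, PDIA4, CREB3L4 and OS9 in Combine, Enza and vehicle, 1 point per library with the mean of 3 marked. ERN1 and DNAJB9 are highest in all 3 Enza libraries (75.5 to 84.9 and 48.9 to 58.2), whereas CREB3L4 and SDF2L1 are highest in vehicle (124 to 140 and 45.1 to 50).

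In the degradation group, 6 of 10 fell and 2 rose in Combine, and 3 rose and 3 fell in Enza. EDEM3 was at 54.1, 66.6 and 49.3 CPM in Combine, 72.1, 68.2 and 71.4 in Enza and 105, 113 and 103 in vehicle (-0.92, adjusted p = 8.87e-05, and -0.60). Both treated arms lay below vehicle. EDEM1 was at 58.6, 58.9 and 56.7 CPM in Combine, 109, 103 and 97.5 in Enza and 68.6, 78.2 and 63.0 in vehicle, and so parted (-0.27 and 0.56), though the fall in Combine was lost in 5 of the 6 fits without 1 library. HERPUD1 was at 149, 107 and 157 CPM in Combine, 205, 191 and 182 in Enza and 144, 151 and 145 in vehicle. It rose in Enza by 0.39, a call lost without vehicle replicate 1 or 3, and was not called in Combine (-0.09). OS9 was at 251, 254 and 252 CPM in Combine, 158, 153 and 150 in Enza and 184, 183 and 190 in vehicle, the 1 member that was higher in Combine and lower in Enza (0.45 and -0.27). DERL2 rose in both (0.30 and 0.47).

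Of translocation and export, SEC24D fell in Combine (-0.74, adjusted p = 5.51e-05) and was not called in Enza (0.04), SSR1 fell in both (-0.52 and -0.55), and SEC61B fell in Combine (-0.41, lost without Combine replicate 1 or 2 or any 1 vehicle library) and rose in Enza (0.58). Sorted by both calls against vehicle, 11 members were lower in both arms, 2 higher in both (DNAJB9 and DERL2), and 5 lower in Combine and higher in Enza (CANX, EDEM1, SEC61B, CREB3L2 and UGGT1), of which only CREB3L2 held both calls in every fit without 1 library. These joint patterns were likewise not counted over all genes, and both calls share the vehicle libraries. Of the calls, 16 of 25 falls in Combine and 13 of 15 in Enza held in every fit without 1 library, as did 2 of 3 rises in Combine and 7 of 11 in Enza. Without vehicle replicate 1 or 3, 7 members rose in Enza. Leaving out the 4 members with the most shared exonic bases, 11 rose and 12 fell in Enza against vehicle, and 5 rose and 18 fell in Combine against Enza.

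Other genes of the pathway were counted from lists. Of all genes, 31.6% rose and 29.3% fell in LNCaP OC2 OE against control (60.8% either way). Against shCon 33.2% rose and 30.8% fell (64.0%), and in shCon against control 28.3% rose and 28.1% fell (56.4%). In shOC2 27.3% rose and 26.8% fell (54.1%), and in LAPC4 32.1% rose and 29.0% fell (61.1%). In Combine 23.2% rose and 23.6% fell (46.8%), and in Enza 34.7% rose and 35.6% fell (70.3%). In Combine against Enza 31.5% rose and 30.4% fell (61.9%). These shares are the background of the list counts. Several lists were near the share changed either way, such as 66.7% of the further degradation genes and 57.1% of the CREB3 list in OC2 OE against control. Of 30 further secretory genes known as targets of XBP1 or ATF6, 18 fell and 3 rose in LNCaP OC2 OE against control, 18 rose and 6 fell against shCon, and 24 fell and 1 rose in shCon against control (medians -0.23, 0.19 and -0.39). KDELR3, a receptor that returns escaped ER proteins, fell by 2.00 in OC2 OE and by 3.23 in shCon against control on the log2 scale. It averaged 4.67 CPM in OC2 OE, 1.97 in shCon and 18.5 in control, so that OC2 OE was above shCon. In shOC2 against shCon its log2 fold change was 1.93. FKBP11, an ER proline isomerase, fell against control (-1.11) and against shCon (-0.73). In shOC2 against shCon 11 of the 30 rose and 6 fell, and in LAPC4 OC2 OE 12 rose and 4 fell (medians 0.05 and 0.10), SEC63, a translocation factor, rising by 1.20. In Combine 17 fell and 4 rose, in Enza 8 fell and 9 rose, and in Combine against Enza 15 fell and 4 rose. TXNDC5, a disulfide isomerase outside the members, averaged 235 CPM in Combine, 6.76 in Enza and 286 in vehicle, and Enza differed there by -5.40 from vehicle on the log2 scale. The part of the other counting step in that difference was not tested.

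Of the 15 genes of the PERK, ATF4 and CHOP arm, 10 rose and 2 fell in LNCaP OC2 OE against control (median 0.69). Against shCon 9 rose and 3 fell (median 0.74), and in LAPC4 9 rose and 4 fell (median 0.28). Of all genes, 31.6% rose and 29.3% fell against control, 33.2% and 30.8% against shCon, and 32.1% and 29.0% in LAPC4. ATF4 itself rose against control (0.84, adjusted p = 4.11e-06) and shCon (0.74, adjusted p = 1.19e-06) and was not called in LAPC4 (-0.02). DDIT3 fell against control (-0.38), rose against shCon (0.74) and rose in LAPC4 (0.80). PPP1R15A (GADD34), which reverses the translation block, rose in all 3 (1.42 against control, 2.21 against shCon, and 2.52 in LAPC4), and CHAC1, a glutathione-degrading target of the arm, rose by 1.33 and 1.19 in LNCaP. In shOC2 against shCon 5 rose and 5 fell, and in shCon against control 5 rose and 3 fell. In Combine 11 of 15 fell and 1 rose (median -0.65), ATF3, a stress-induced factor, with a log2 fold change of -1.39 and TRIB3, an ATF4 target, of -1.10. In Enza 6 rose and 4 fell (median 0.38), and in Combine against Enza 1 rose and 11 fell. Over all genes 23.2% rose and 23.6% fell in Combine, 34.7% and 35.6% in Enza, and 31.5% and 30.4% in Combine against Enza.

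Of 16 oligosaccharyltransferase and glycan-trimming genes, 7 rose and 4 fell in OC2 OE against control, 11 rose and 2 fell against shCon, 2 rose and 5 fell in shCon against control, 8 rose and 4 fell in shOC2, and 5 rose and 3 fell in LAPC4. Over all genes, 23.2% to 34.7% rose and 23.6% to 35.6% fell across the 8 comparisons. DDOST, a subunit of the oligosaccharyltransferase, rose against control (0.65) and against shCon (0.98). In Combine 10 fell, in Enza 5 rose and 5 fell, and in Combine against Enza 3 rose and 9 fell. Of 18 further degradation genes, 6 rose and 6 fell against control, 8 rose and 5 fell against shCon, 6 rose and 4 fell in shCon against control, 7 rose and 2 fell in shOC2, and 6 rose and 2 fell in LAPC4. In the drug table, where 17 were matched, 3 rose and 7 fell in Combine, 6 rose and 8 fell in Enza, and 3 rose and 5 fell in Combine against Enza. Of 15 COPII and cargo genes, 2 rose and 8 fell against control, 5 rose and 5 fell against shCon, 2 rose and 7 fell in shCon against control, 10 rose and 2 fell in shOC2, and 4 rose and 2 fell in LAPC4. Of these, 7 fell in Combine, 2 rose and 7 fell in Enza, and 5 rose and 6 fell in Combine against Enza.

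For the CREB3 family and its site proteases, 7 of 8 listed genes were tested: 2 rose and 2 fell against control, 2 rose and 1 fell against shCon, 2 rose and 2 fell in shCon against control, 2 rose and 4 fell in shOC2, and 3 rose in LAPC4. In Combine 3 rose and 1 fell, in Enza 4 rose and 1 fell, and in Combine against Enza 1 rose and 2 fell. Of 20 cytosolic and mitochondrial heat shock genes, listed as a contrast outside the ER, 2 rose and 6 fell in LNCaP OC2 OE against control, 12 rose and 4 fell against shCon, and 9 fell in shCon against control. HSPB1, a small heat shock protein, had a log2 fold change of -0.52 against control and 0.91 against shCon. In shOC2 3 rose and 6 fell, and in LAPC4 10 rose and 2 fell. In Combine 12 fell, in Enza 15 fell, and in Combine against Enza 10 rose and 4 fell. For both lists the background was again 23.2% to 34.7% of all genes higher and 23.6% to 35.6% lower, by comparison.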

How the data were processed

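RNA was sequenced from LNCaP and LAPC4 cultures, and the gene tables the authors deposited were used as they stand. The submitters' processing notes name FastQC 0.9.0, Bowtie2 and the build hg38. Neither they nor the labels give the counter, its strand setting or the annotation release. The LAPC4 table and the Enza columns hold whole-number counts per gene as deposited, and the LNCaP table and the Combine and vehicle columns hold estimated counts as deposited by the authors, which were rounded to whole numbers. Nothing ties an Enza column to a replicate number, and 1116 repeated names in the drug table were summed. Every measured value column was mapped to a sample or group by its name; the shCon and shOC2 columns carry hairpin names, which the descriptions of those samples give.

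Each comparison was fitted with edgeR 4.0.16 (R 4.3.3, limma 3.58.1): filterByExpr, TMM scaling and the quasi-likelihood F-test, with Benjamini-Hochberg adjustment over all genes tested and a threshold of 0.05. LNCaP pairs and LAPC4 were fitted on their own groups, and the 3 drug arms in 1 fit. The interaction of line and OC2 OE was fitted over the genes whose identifier is shared by both tables. CPM are on TMM-scaled totals of a whole table, while fold changes come from each comparison's own fit. The scripts were tested on simulated data in which 200 genes were changed. At 1.5-fold, 81% to 91% of the changes were recovered in the LNCaP comparisons, 85% in LAPC4 and 48% to 60% in the drug comparisons. False calls per comparison numbered 9 to 30 in LNCaP, 18 in LAPC4 and 2 to 6 in the drug table. The 30 were in OC2 OE against control, a larger part of the calls there than the threshold of 0.05. In the data themselves 46.8% to 70.3% of all genes were called, a far larger share than was changed in the simulation. Neither the recovery nor the false calls therefore carry over to the real comparisons. Promoters come from RefSeq (GRCh38.p14) and exon overlaps from GENCODE 29 (hg38).

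All 39 members could be named, as could up to 3 called genes of each further list in each comparison, those with the largest absolute log2 fold change and a mean of at least 5 CPM in either group, besides ATF4, DDIT3 and ERO1A. The members, their roles and the further lists (XBP1 and ATF6 targets, the PERK, ATF4 and CHOP arm, glycan transfer and trimming, degradation, COPII transport, the CREB3 family and its proteases, and heat shock genes) were chosen with earlier results of these data known, so no count over them is independent support. MARCHF6 was not matched in the drug table. Replicates agreed less closely than counting noise allows (chi-square per gene 3.5 to 88.8), so none was merged. Alternatives were DESeq2 1.42.0 (its test and its size factors), no filter on low counts, all 4 LNCaP groups in 1 fit, Combine and vehicle alone, a replicate block, shCon as the reference of the interaction, each library left out in turn and, chosen after seeing the data, the members with most shared exons left out.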

Additional observations from a re-analysis of the deposited data

Results flagged for a closer look

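The response to OC2 OE differed between LAPC4 and LNCaP for 21 of 39 members when LNCaP was set against control, and for 24 when it was set against shCon (edgeR's interaction test, adjusted p under 0.05). Over all genes these shares were 49.5% and 49.3%. The cell line cannot be told apart from the medium, the added androgen or the separately counted tables.

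For 6 members the LAPC4 log2 fold change was called lower than that of LNCaP with each control set, a count not made over all genes. Others, such as XBP1 (-0.13 with control and -1.64 with shCon), were lower with each set but called with at most 1. Of the 6, HYOU1 differed by -0.47 with control and -1.22 with shCon, SEL1L by -0.38 and -0.91, and EDEM3 by -0.34 and -0.36. DERL3 differed by -0.68 and -2.40, and CREB3L4 by -0.40 and -1.68. DERL3 shares 77.0% of its exonic bases with SMARCB1, and the part of this overlap in its difference was not tested. CREB3L1 differed by -7.22 and -5.64: it fell in LAPC4 OC2 OE against Vec (764, 645 and 684 counts against 1132, 1287 and 1573) and was higher in LNCaP OC2 OE than in control (100 and 139 counts against 2 and 1). With so few control counts its fitted value with control depends on the prior count. Without LNCaP OC2 OE replicate 2, SDF2L1, SEC61B, HERPUD1, SEL1L, EDEM3 and CREB3L4 were no longer called with control as reference.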

How the results depend on the processing

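Of the counts, medians and all-gene counts recomputed under an alternative, 392 stayed within a set tolerance of the main value and 41 moved past it. The tolerance was 1.5-fold for a count and the spread of the library medians for a median, so a kept value need not be unchanged. Of the single members, 3036 values kept their sign and their side of the threshold, 212 lost their call and 58 gained one. A further 19 changed sign with a call on at least 1 side, and 69 changed sign with a call on neither. Precision is limited by the 2 or 3 libraries a group.

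In OC2 OE against shCon the members lower were 3 with no filter on low counts and 3 with all 4 LNCaP groups in 1 fit. In shCon against control the members higher were 0 with DESeq2's Wald test, 0 with no filter and 0 with the replicate block, EDEM1 being lost in each, and the member median was -0.62 with all 4 groups in 1 fit. In Combine against Enza 5 members were higher once those sharing most exonic bases were left out. Those left out included PPIB (1.96), PDIA6 (0.48) and DNAJB11 (0.43), which had risen there. The same members had fallen in Enza against vehicle (-2.48, -0.96 and -0.84). The part of the shared exons and of the other counting step was not tested. With shCon as the LNCaP reference of the interaction, 0 members were higher and 24 lower, and these differences, called with at least 1 of the references, changed sign: HSPA5 -1.12, PDIA3 -0.026, PDIA4 -1.38, PDIA5 -0.017, P4HB -0.58, DNAJB9 -0.87, DNAJB11 -0.25, DNAJC3 -0.56, SDF2L1 -1.11, MANF -0.76, CRELD2 -1.70, HERPUD1 -1.05, EDEM2 -0.41, DERL2 -0.16, SEC61B -0.29, SEC61A1 -0.045, SSR1 -0.37, CREB3L2 -1.48 and UGGT1 -0.17. CALR (-0.27), DERL1 (-0.015) and ERN1 (-0.094), called with neither, also changed sign. The cause was not tested.

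With 1 library left out (a lone library is then taken to vary like the others), OC2 OE against control gave 1 to 3 members higher and medians of -0.36 to -0.25. Against shCon it gave 2 to 3 members lower, medians of 0.39 to 0.48 and 7077 to 8375 genes called in all. In shCon against control 0 members were higher, with medians of -0.70 to -0.63. In shOC2 against shCon 16 to 27 members were called, 11 to 17 higher and 5 to 10 lower, with medians of 0.080 to 0.14 and 5076 to 7863 genes in all. In LAPC4 3 to 8 were higher, in Enza against vehicle 7 to 12 were higher with medians of -0.073 to 0.05, and 3 to 7 were lower in the interaction.

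DESeq2's test lost PDIA5 in OC2 OE against shCon, CANX and DERL2 in shOC2, and EIF2AK3 in LAPC4, and called CALR in OC2 OE against control and HSPA5 in Combine. The deviations of same-numbered libraries correlated at 0.233, -0.0245, -0.0799 and 0.00429 in the LNCaP comparisons and at 0.0547, -0.103 and -0.155 in LAPC4. In Combine and vehicle the correlations were 0.0963, 0.148 and 0.109, all above 0. In the main fits the numbers were taken as names, without pairing. With the replicate block, 30 members were called in OC2 OE against control, 32 against shCon, 32 in shCon against control, 26 in shOC2, 17 in LAPC4 and 30 in Combine against vehicle. Of the LAPC4 libraries 1 of 6 correlated best with its own number, and of the Combine and vehicle libraries 6 of 6 did, a hint from the data and not the design.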

Other observations

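ERO1A, the oxidase that recharges protein disulfide isomerases, was lower in Combine than in either other drug arm. Its log2 fold change was -1.28 in Combine against vehicle (adjusted p = 3.89e-05), 0.59 in Enza against vehicle and -1.87 in Combine against Enza by edgeR. In LNCaP it was -0.26 in OC2 OE against control (adjusted p = 0.0146), 0.49 against shCon and -0.74 in shCon against control, and in LAPC4 OC2 OE it was 0.34. DDIT3 (CHOP) rose in both drug arms against vehicle (0.51, adjusted p = 0.031 in Combine, and 0.58, adjusted p = 0.0107 in Enza) and ATF4 did not pass the test in either (-0.26 and 0.38).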
